A study of Homo sapiens with 4 samples.

Results

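The 8 genes described here, HLA-B, HLA-C, HLA-E, B2M, TAP1, TAP2, TAPBP and IRF1, encode parts of the MHC class I antigen presentation pathway or a regulator of it. They were chosen by name, as the genes with these symbols to which a probe identifier could be matched, and all 8 of 8 were among the 13040 genes that were tested, out of 24154 genes named on the arrays. They came from 13 probes, 11 of which passed the filter on dim probes. The study asked which mRNAs are held by the RNA-binding protein TIA1 in KYSE180, an established line of esophageal squamous cell carcinoma (ESCC). It put RNA from anti-TIA1 immunoprecipitates (TIA1 RIP, n = 2) and total RNA, labelled as input (n = 2), on 4 single-colour Agilent arrays. The study made the immunoprecipitates from cytoplasmic lysates. The sample titles do not say which fraction of the cells the total RNA came from. No treatment, genotype or time point is given for either group, and both groups share the same cell line, so the comparison stands for 1 line only. None of the 4 arrays held RNA pulled down with a control antibody. RNA that binds to the beads or to any antibody therefore cannot be told apart from RNA held by TIA1. Nothing in the labels says whether the replicates came from separate cultures, and the p-values measure the spread between these arrays, which may be technical.

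MHC class I molecules show peptides from inside the cell to cytotoxic T cells. A heavy chain such as HLA-B, HLA-C or HLA-E folds in the endoplasmic reticulum with the light chain beta-2-microglobulin, which B2M encodes. TAP1 and TAP2 form the transporter that brings peptides in, tapasin (TAPBP) joins the transporter to the empty heavy chain, and IRF1 is a transcription factor induced by interferon that turns on many of these genes. TIA1 is known to bind U-rich stretches of RNA, often in 3′ UTRs, and to repress translation.

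Because TIA1 is known for U-rich sites, the most U-rich 30 bases of the 3′ UTR of each gene are shown, with runs of 5 or more U in capitals. They are reference sequence of GRCh37 at the 3′ UTRs of GENCODE transcripts, 5′ to 3′ on the transcript strand.
HLA-B, chr6:31321727-31321756, minus strand: uauaaauuuguuuucucaaauauuugcuau
HLA-C, chr6:31236604-31236633, minus strand: uauaaauuuguguucucaaauauuugcuau
HLA-E, chr6:30460744-30460773, plus strand: cuguguuccuucccuguucucuuuucuauu
B2M, chr15:45010285-45010314, plus strand: ugguugugguuaaucugguuuaUUUUUguu
TAP1, chr6:32812990-32813019, minus strand: uucuugauauuuauaauaaaauugguguuu
TAP2, chr6:32793472-32793501, minus strand: cucUUUUUaaaauauauuauuuauuuauuu
TAPBP, chr6:33269351-33269380, minus strand: agggauaaUUUUUcUUUUUUUUUUUUUUUU
IRF1, chr5:131818721-131818750, minus strand: auuuaacuuguagaugauuuuacUUUUUau

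The windows held between 15 U (HLA-C) and 22 U (TAPBP) in 30 bases, beside a median of 18 over the 11531 tested genes that had a 3′ UTR of at least 30 bases. TAPBP had the longest run, 18 U, in a 3′ UTR of 2066 bases. HLA-B and HLA-C, whose 3′ UTRs have 426 and 420 bases, had no run of UUUUU and no AUUUA pentamer, and their windows were identical at 29 of 30 bases. TAP1, with a 3′ UTR of 370 bases, had no UUUUU and 1 AUUUA. B2M had 3 AUUUA in 553 bases, HLA-E 2 in 1448, IRF1 4 in 2342 and TAP2 6 in 3491. These letters were searched on the transcript strand, overlapping matches included. Of all genes with such a 3′ UTR, 78.7% held UUUUU and 69.9% held AUUUA, and the median U content of a 3′ UTR was 29.4%, against 36.0% in B2M, 30.3% in HLA-B and 23.5% in IRF1.

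Of the 8 genes, 6 lie on chromosome 6. HLA-E (chr6:30457286-30461971), HLA-C (chr6:31236526-31239907), HLA-B (chr6:31321649-31334844), TAP2 (chr6:32789610-32806516), TAP1 (chr6:32812986-32821593) and TAPBP (chr6:33267471-33282061) follow each other in the MHC region. B2M lies at chr15:45003556-45011049 and IRF1 at chr5:131776132-131844411. The heavy chains are close copies: the coding sequences of HLA-B and HLA-C were 92.6% identical, those of HLA-B and HLA-E 86.9% and those of HLA-C and HLA-E 86.4%. A probe for one of them may therefore pick up RNA of another, and KYSE180 may carry other HLA alleles than the reference, so the 3 heavy chain values were not read as independent of each other.

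The processed signal of each spot was put on a log2 scale and the 75th percentile of its array subtracted, so that 0 stands for the signal that 75% of the spots of that array fall under. On this scale a ratio says how a gene changed relative to the other genes, not in molecules per cell. Total RNA replicate 2 stood apart from the other arrays. Its 75th percentile was a signal of 69.9, against 714.2 to 1513.8 on the others, and 32.2% of its spots were well above background, against 45.8% to 48.4%. Its values over all genes correlated at 0.67 to 0.73 with the other arrays, which correlated with each other at 0.87 to 0.94. All 4 arrays were on 1 slide with 1 scan time, so there was no slide or scan batch. Every ratio is for this reason also given against each total RNA array alone.

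The 8 genes did not move together. Of the 8, only B2M was higher on both TIA1 RIP arrays than on both total RNA arrays. The heavy chains, TAP1 and TAPBP lay well under total RNA replicate 2 on both TIA1 RIP arrays. Against total RNA replicate 1 they ran from -0.30 (HLA-B, TIA1 RIP replicate 1) to 0.99 (HLA-E, TIA1 RIP replicate 2). B2M was at 0.90 and 1.05 against that array. No member passed an adjusted p of 0.05 in limma, and neither did any other gene: 0% of 13040 genes were called higher and 0% lower. At an unadjusted p under 0.05, 144 genes were higher and 524 lower, none of them members. Both TIA1 RIP arrays lay above both total RNA arrays for 19.4% of all genes, and for 1 of the 8. Both lay below for 21.7% of all genes, and for 0 of the 8.

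**Figure D1:**
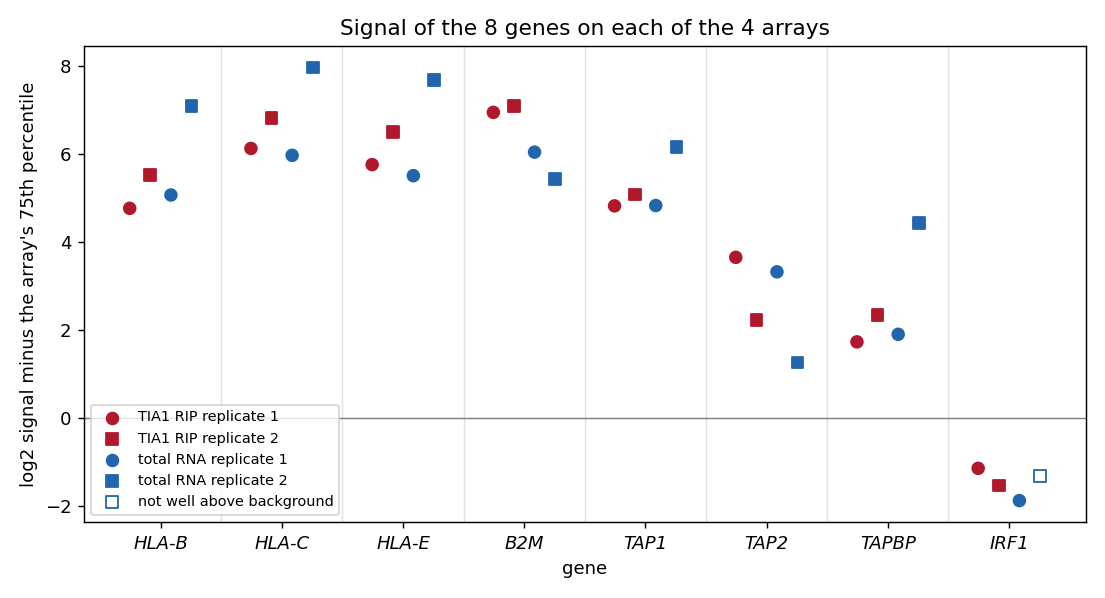
Log2 signal minus the 75th percentile of the array (y axis) for each of the 8 genes (x axis) on the TIA1 RIP arrays (red) and the total RNA arrays (blue), with 1 point per array and an open point where the probe was not well above background. Values are to be compared within a gene only: the points of total RNA replicate 2 lie highest for HLA-B, HLA-C, HLA-E, TAP1 and TAPBP and lowest for B2M and TAP2.

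Among the heavy chains, HLA-B, a classical class I molecule, read 4.77 and 5.53 in TIA1 RIP and 5.07 and 7.10 in total RNA (log2, replicates 1 and 2). HLA-C, a classical molecule that is also a ligand of natural killer cell receptors, read 6.13 and 6.82 in TIA1 RIP and 5.97 and 7.97 in total RNA. HLA-E, a nonclassical molecule that shows leader peptides of other class I chains, read 5.76 and 6.50 in TIA1 RIP and 5.51 and 7.69 in total RNA. For all 3, TIA1 RIP replicate 1 was the lower of the TIA1 RIP arrays, total RNA replicate 2 was the highest array of all, and the groups overlapped.

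The means of HLA-B were 5.15 ± 0.54 in TIA1 RIP and 6.08 ± 1.43 in total RNA (SD, n = 2 each), a log2 ratio of -0.93 ± 0.96 (SE; limma, adjusted p = 0.816). The log2 ratio was -0.49 ± 0.95 for HLA-C (adjusted p = 0.903) and -0.47 ± 0.98 for HLA-E (adjusted p = 0.910). The sign of all 3 turned with the total RNA array. Against total RNA replicate 1 alone, the log2 ratios of the TIA1 RIP mean were 0.08 for HLA-B, 0.50 for HLA-C and 0.62 for HLA-E. Against total RNA replicate 2 alone they were -1.95, -1.49 and -1.56. These differences lie within the spread between the total RNA arrays, which differed by 2.03 for HLA-B, 1.99 for HLA-C and 2.18 for HLA-E. The 2 probes of HLA-B had log2 ratios of -0.94 and -0.92.

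B2M, the light chain shared by all class I molecules, read 6.95 and 7.09 in TIA1 RIP and 6.05 and 5.43 in total RNA. The TIA1 RIP arrays were both higher, and differed from each other by 0.14. Its means were 7.02 ± 0.10 and 5.74 ± 0.43 (SD, n = 2 each), a log2 ratio of 1.28 ± 0.78 (SE), which did not pass the test (limma, adjusted p = 0.776). Taken over total RNA replicate 1 only, its log2 ratio was 0.97, and over replicate 2 only, 1.59. Of all genes tested, 87.3% had a lower log2 ratio than B2M over both total RNA arrays, 85.4% against replicate 1 alone and 80.2% against replicate 2 alone. In processed signal, the geometric mean over 10 spots was 186924 and 173395 in TIA1 RIP and 47161 and 3021 in total RNA, with no spot saturated.

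The light chain was then set against the heavy chains on the same array, a contrast in which the scale of the array cancels. The change of B2M was compared with the mean change of HLA-B, HLA-C and HLA-E. From total RNA replicate 1, B2M gained 0.87 (log2) more than the heavy chains in TIA1 RIP replicate 1 and 0.28 more in replicate 2, which are 1.82-fold and 1.22-fold. From total RNA replicate 2 it gained 3.54 and 2.96 more, which are 11.7-fold and 7.77-fold. B2M moved up more than the heavy chains in all 4 pairs of arrays, and by 1.91 on the group means. With GC content removed from each array the difference on the means was 0.21, and HLA-C (0.26) was above B2M (0.20). The total RNA arrays differed from each other in the same quantity by -2.68 and the TIA1 RIP arrays by -0.59 (replicate 2 minus replicate 1), so the gain from total RNA replicate 1 was smaller than the gap between the total RNA arrays. No test was made of this contrast, which was chosen with the values known.

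TAP1, one chain of the peptide transporter, read 4.82 and 5.08 in TIA1 RIP and 4.83 and 6.16 in total RNA. Apart from total RNA replicate 2, its arrays lay within 0.26 of each other. TAP2, the other chain, read 3.66 and 2.23 in TIA1 RIP and 3.33 and 1.27 in total RNA. Here replicate 1 was the higher array in both groups, by 1.43 in TIA1 RIP and 2.06 in total RNA, and the groups overlapped. The log2 ratios were -0.54 ± 0.85 for TAP1 and 0.64 ± 1.02 for TAP2 (SE; limma, adjusted p = 0.878 and 0.879). Against total RNA replicate 1 alone they were 0.12 and -0.39, and against replicate 2 alone -1.21 and 1.68, so that the signs of the transporter chains were opposite in both readings and each changed with the array. A second TAP2 probe was well above background only on the arrays with number 1, at signals of 404 and 126, and was left out by the filter.

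TAPBP, tapasin, had 3 kept probes and read 1.74 and 2.34 in TIA1 RIP and 1.91 and 4.44 in total RNA. Its total RNA replicate 2 was 2.53 above replicate 1, the widest gap of the 8 genes. The log2 ratio was -1.14 ± 1.03 (SE; limma, adjusted p = 0.797), 0.13 against total RNA replicate 1 alone and -2.40 against replicate 2 alone. The 3 kept probes had log2 ratios of -1.21, -0.76 and -1.44. A further probe, named for a shorter transcript of the gene, was well above background on total RNA replicate 2 only, at a signal of 114 against 15.5 to 94.3 on the other arrays, and did not enter these values.

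IRF1 was the dimmest of the 8 and the only member whose kept probes were not well above background on every array. Its log2 values were -1.14 and -1.53 in TIA1 RIP and -1.87 and -1.31 in total RNA, where only replicate 1 measured it. Its signals were 689 and 440 in TIA1 RIP, 196 in total RNA replicate 1 and 28.2 in total RNA replicate 2, where the lowest signal well above background was 32.2. The log2 ratio over all arrays was 0.26 ± 0.79 (SE; limma, adjusted p = 0.940). Against total RNA replicate 1, the array that measured it, the 2 TIA1 RIP arrays were higher by 0.73 and 0.34.

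**Figure D2:**
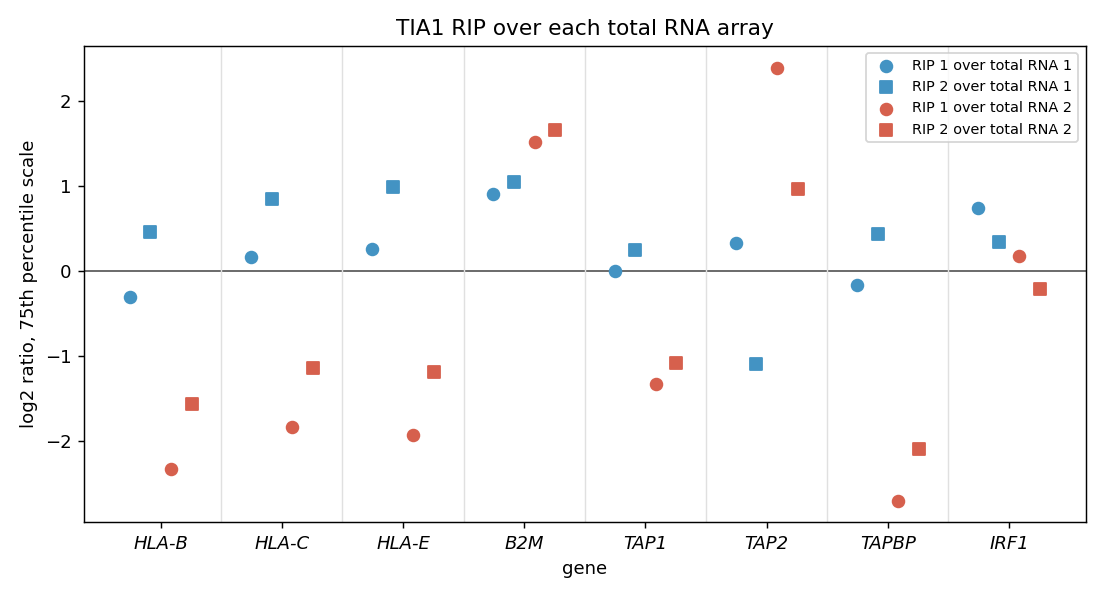
Log2 ratio of each TIA1 RIP array over each total RNA array (y axis, 75th percentile scale) for the 8 genes (x axis), with 1 point per pair of arrays, blue over total RNA replicate 1 and red over replicate 2. B2M lies above 0 in all 4 pairs, between 0.90 and 1.66, while the red points of HLA-B, HLA-C, HLA-E, TAP1 and TAPBP lie between -2.70 and -1.08.

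Over all genes, the gap between the total RNA arrays followed the base composition of the transcripts. Over all genes with a GENCODE transcript, the median of total RNA replicate 2 minus replicate 1 went from -2.05 in the lowest decile by GC content to 2.09 in the highest. The 8 genes leaned to high GC content, with a median of 56.1%. HLA-B (58.9% GC), HLA-C (60.1%), HLA-E (55.1%), TAP1 (57.4%) and TAPBP (57.1%) were above the median gene of 49.9% and were higher on total RNA replicate 2, by 1.33 to 2.53. B2M (39.1%) and TAP2 (48.9%) were lower on it, by -0.61 and -2.06. The members did not all lie on the trend: the median of the GC decile of B2M was -1.68 and that of TAP2 -0.13. IRF1 (53.0%), also above the median gene in GC content, was at 0.56, but total RNA replicate 2 did not measure it. With the trend on GC content removed from each array, the log2 ratio of B2M was 0.20, that of HLA-B -0.25, that of HLA-C 0.26, that of HLA-E -0.04 and that of TAPBP -0.57, and none passed the test. The log2 ratio of IRF1 was 0.52 and that of TAP2 0.55 in that fit, where the value of IRF1 takes in the array that did not measure it. Against total RNA replicate 1 the median ratio of all genes lay between 0.01 and 0.23 in every GC decile.

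**Figure D3:**
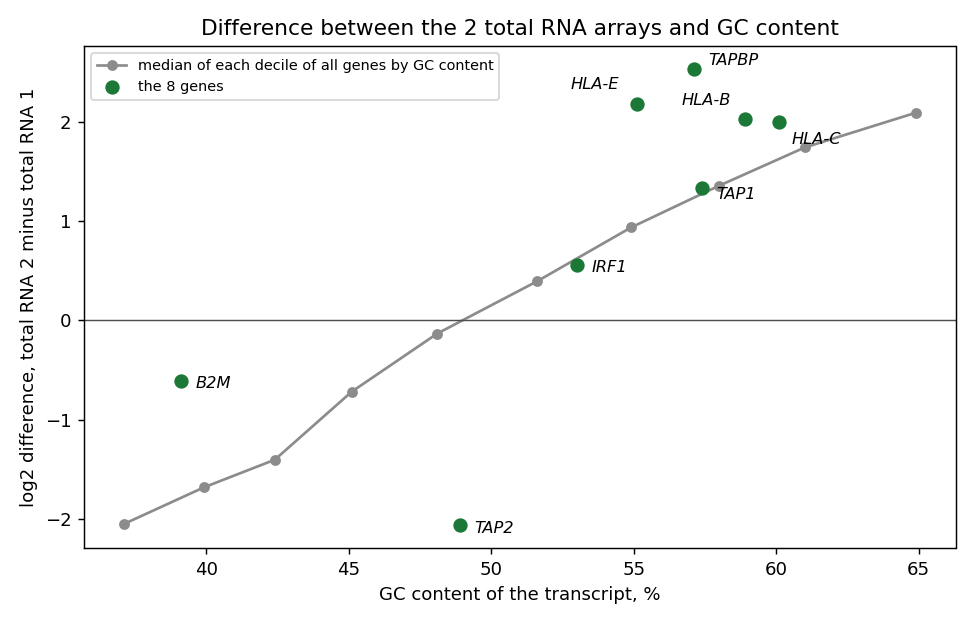
Log2 difference between the total RNA arrays, replicate 2 minus replicate 1 (y axis), against the GC content of the transcript in percent (x axis). Green points are the 8 genes and the grey line joins the medians of the deciles of all genes by GC content, which rise from -2.05 to 2.09. B2M lies at -0.61 and the 3 heavy chains between 1.99 and 2.18. IRF1 was not well above background on total RNA replicate 2.

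Enrichment was next expressed relative to GAPDH, a glycolytic enzyme used as the reference mRNA, with 2.5-fold as the criterion. GAPDH itself read 6.49 and 6.69 in TIA1 RIP and 7.67 and 9.63 in total RNA, a log2 ratio of -2.06 ± 0.93 (SE). Since the reference was lower in TIA1 RIP, most genes rank as enriched on this scale: 72.4% of 13039 genes passed 2.5-fold on the group means, and their median log2 enrichment was 2.02. Of the 8 members, 6 passed, and their median log2 enrichment was 1.58. The count is near that of genes in general, and the median lies under that of all genes. In limma, 0% of genes were called higher relative to GAPDH at an adjusted p of 0.05, and 2538 were higher at an unadjusted p under 0.05, B2M and IRF1 among them, of which IRF1 was not measured on total RNA replicate 2 and passed the filter on dim probes through TIA1 RIP. Without total RNA replicate 1, 9532 genes were called higher, 5 members among them (HLA-C, B2M, TAP1, TAP2 and IRF1). With GC content removed per array and the replicate number as a block, 6236 of 11631 genes were called higher, 6 members among them (those 5 and HLA-E). That fit gave every member the same SE (0.67).

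B2M was 10.1-fold enriched relative to GAPDH (log2 3.34 ± 1.09, SE; limma, adjusted p = 0.221), with 4.24-fold and 4.06-fold over total RNA replicate 1 and 25.3-fold and 24.2-fold over replicate 2 (TIA1 RIP replicates 1 and 2). With GC content removed per array, B2M was 3.39-fold enriched and 60.0% of all genes passed 2.5-fold. On the values as measured it was the only member past 2.5-fold in all 4 pairs of arrays, as were 26.2% of all genes. HLA-C fell just short, only with TIA1 RIP replicate 1 over total RNA replicate 2 (2.48-fold). IRF1 fell just short only with TIA1 RIP replicate 2 over total RNA replicate 1 (2.49-fold). IRF1 was 4.98-fold enriched on the means (adjusted p = 0.221), a value that takes in the array that did not measure it, with 3.76-fold and 2.49-fold over the total RNA array that measured it. TAP2 was 6.52-fold enriched on the means (adjusted p = 0.257), but its pairs ran from 0.917-fold to 46.3-fold.

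The heavy chains moved with GAPDH between the total RNA arrays, and their enrichment relative to it depended little on which of the arrays was used. HLA-B was 2.23-fold enriched over total RNA replicate 1 and 2.14-fold over replicate 2, HLA-C 2.99-fold and 2.93-fold, and HLA-E 3.24-fold and 2.80-fold. On the means, the values were 2.18-fold for HLA-B, 2.96-fold for HLA-C and 3.01-fold for HLA-E (limma, adjusted p = 0.261, 0.221 and 0.221). GAPDH rose by 1.96 from total RNA replicate 1 to replicate 2 and has a GC content of 56.1%, near that of the heavy chains. The TIA1 RIP arrays differed more: HLA-B was 1.84-fold and 1.76-fold enriched in TIA1 RIP replicate 1, over the 2 total RNA arrays, and 2.70-fold and 2.59-fold in replicate 2. HLA-B thus passed 2.5-fold with replicate 2 and missed it with replicate 1. TAP1 was 2.86-fold enriched, with 2.29-fold over total RNA replicate 1 and 3.57-fold over replicate 2. TAPBP was the lowest member at 1.90-fold, with 2.31-fold and 1.56-fold, and under quantile normalization its direction turned, to 0.882-fold.

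Read against total RNA replicate 1 alone, 4 of the 8 members passed 2.5-fold relative to GAPDH (HLA-C, HLA-E, B2M and IRF1), as did 42.3% of all genes. Against total RNA replicate 2 alone, 6 passed (HLA-C, HLA-E, B2M, TAP1, TAP2 and IRF1), as did 77.5% of all genes. HLA-C, HLA-E, B2M and IRF1 passed in both readings, although IRF1 was not measured on total RNA replicate 2.

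**Figure D4:**
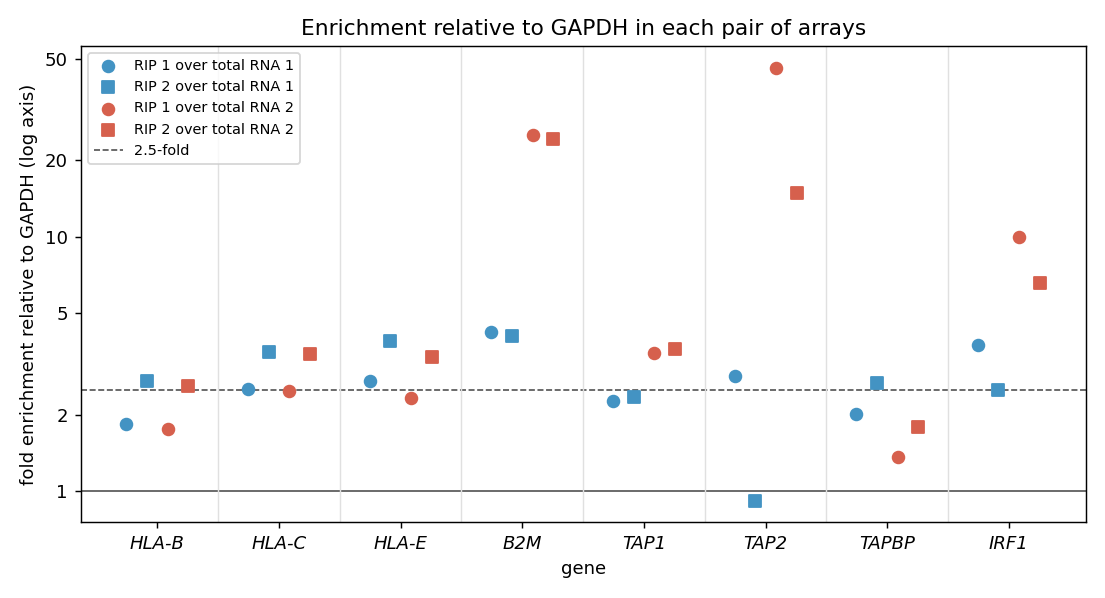
Fold enrichment relative to GAPDH (y axis, log axis) of the 8 genes (x axis) in each pair of 1 TIA1 RIP array and 1 total RNA array, blue over total RNA replicate 1 and red over replicate 2, with the dashed line at 2.5-fold. B2M lies above the line in all 4 pairs, the heavy chains keep about the same fold over both total RNA arrays, and TAP2 runs from 0.917-fold to 46.3-fold.

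The rest of the pathway was read from lists, all on the 75th percentile scale, where the median log2 ratio of all genes was -0.04. No gene of any list passed the adjusted threshold in limma in either direction. Of 9 other class I and class I like genes, 8 were tested, and their median log2 ratio was -0.60, close to that of the 8 members at -0.48. Their median was 0.20 over total RNA replicate 1 and -1.26 over replicate 2, and that of the members was 0.32 and -1.35. MICB, a stress-induced ligand of the receptor NKG2D, was the highest at 0.63, with 1.35 over total RNA replicate 1 and -0.08 over replicate 2.

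The immunoproteasome cuts proteins into peptides that suit class I, and PA28 is its activator. All 5 of their genes had negative log2 ratios, from -0.84 (PSMB8) to -2.58 (PSMB10), with a median of -1.21. For 4 of the 5, both TIA1 RIP arrays lay below both total RNA arrays, as for 21.7% of all genes, and the median was negative against each total RNA array, at -0.65 and -1.89. PSMB10, a catalytic subunit, read 2.35 and 1.76 in TIA1 RIP and 3.86 and 5.43 in total RNA (limma, adjusted p = 0.776). None of the 5 passed 2.5-fold relative to GAPDH, as 72.4% of all genes did.

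All 6 genes of peptide loading and trimming were tested, with a median log2 ratio of 0.46, which was -0.20 over the 4 detected on all 4 arrays. ERAP1, an aminopeptidase that trims peptides in the endoplasmic reticulum, was the highest of those detected on all 4 arrays at 0.90, and CALR, the chaperone calreticulin of the peptide loading complex, the lowest at -1.81. Of 14 genes of interferon signalling and class I transcription, 12 were tested, and 10 of them had a positive log2 ratio, with a median of 0.60, or 0.22 over the 7 detected on all 4 arrays. For 6 of the 12, both TIA1 RIP arrays lay above both total RNA arrays, as for 19.4% of all genes. IFNGR1, a chain of the interferon gamma receptor, was the highest at 2.09, with 3.94 and 4.06 in TIA1 RIP and 3.17 and 0.65 in total RNA, and a GC content of 39.4%. NLRC5, the transactivator of class I genes, did not pass the filter on dim probes. RFXANK, a subunit of the RFX complex at class I and class II promoters, was the lowest at -1.69. Of 10 interferon-induced genes 7 were tested, with a median of 0.47, which was -0.26 over total RNA replicate 1 and 0.08 over replicate 2. Over the 3 of them detected on all 4 arrays the median was -0.47, from -2.31 for ISG15, a ubiquitin-like protein, to 0.22 for IFI6. The sign of IFI6 turned with the array, at 1.53 over total RNA replicate 1 and -1.10 over replicate 2. The median GC content was 56.1% in the members, 55.8% in the other class I list, 52.4% in the immunoproteasome list, 46.9% in the signalling list and 43.4% in the loading list.

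**Figure D5:**
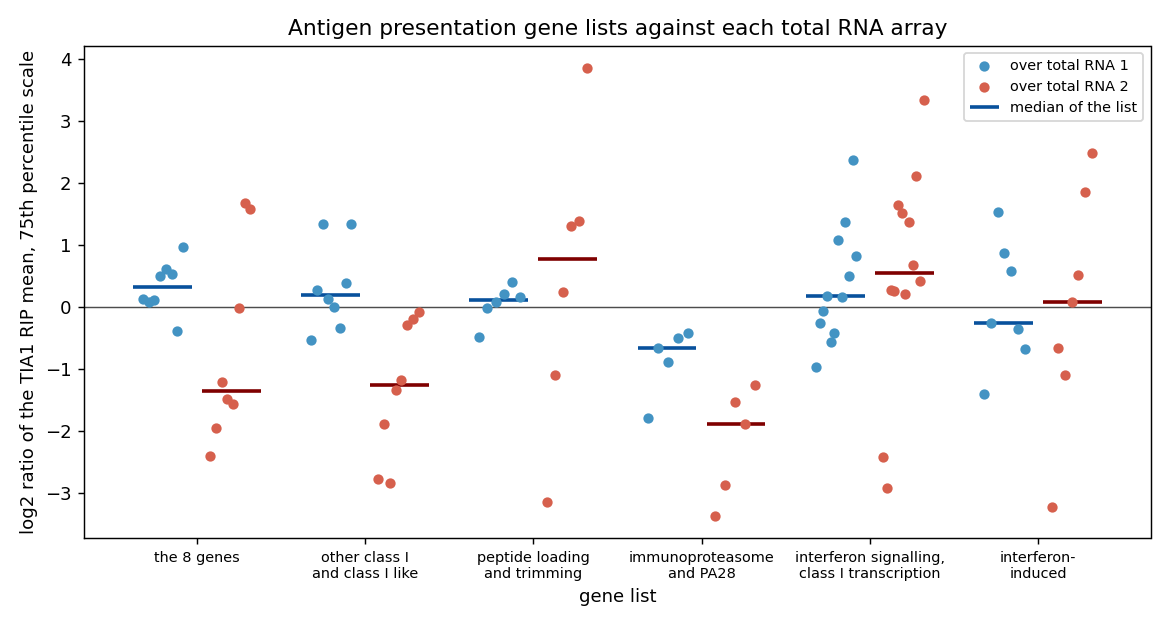
Log2 ratio of the TIA1 RIP mean (y axis, 75th percentile scale) over total RNA replicate 1 (blue) and over total RNA replicate 2 (red) for the genes of each list (x axis), with 1 point per gene and a bar at the median of the list. The 5 immunoproteasome and PA28 genes lie below 0 in both readings, and the other class I list, like the 8 members, has a median above 0 in one reading and below 0 in the other.

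B2M and IRF1 were compared with every other gene detected on all 4 arrays (8225 genes, the members among them left out) by the root mean square difference over the 4 arrays, each gene centred on its mean. The genes most like B2M were TMEM38B, TMEM17 and LIPA, at differences of 0.04 to 0.07 (log2). Those most like IRF1 were CASP6, POLR1H and GM2A, all at 0.04, where 1 of the 4 values of IRF1 was not well above background.

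The cell line was checked against markers. All 6 squamous markers and all 4 general epithelial markers were detected on every array. KRT14 and KRT18 were the lowest of them, with log2 ratios of -1.45 and -1.84, and DSG3 and EPCAM the highest, at 0.74 and 1.13. Of 6 leukocyte markers 2 were tested, CD14 at -0.58 among them, and of 8 MHC class II markers 2, HLA-DRB1 at -1.03 and HLA-DPA1 at -0.37. CD3E, HLA-DRA, CD74 and CIITA, which define T cells and cells with MHC class II, were not well above background on any array. From the same lists, CD14, HLA-DRB1 and HLA-DPA1 were well above background on all 4 arrays, so these markers did not all point the same way. Of 4 fibroblast markers 1 was tested and of 3 endothelial markers 2. In RNA of a whole culture, fewer cells of a kind and less RNA per cell cannot be told apart.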

How the data were processed

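The authors hybridized Cy3-labelled RNA of 2 TIA1 RIPs and 2 total RNA samples and deposited scanner files, which name Agilent Feature Extraction 10.7.1.1 and build hg19 in their headers: spot intensity on a linear scale, as processed (background-subtracted) signal and as median spot and background intensity. The deposited files also hold other columns, flags for uneven, deviant and detected spots, used here as filters.

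Of 58717 spots other than controls, 299 to 382 per array were left out as flagged. Processed signals were put on log2, the 75th percentile of the array was subtracted, and the mean was taken over the spots of each probe. Probes were kept when at least 0.5 of their spots were well above background on both arrays of a group (20100 probes), and the kept probes of a symbol were averaged. Symbols were found for 34510 of 50599 probes through RefSeq (names only) and GENCODE 44 on GRCh37. limma 3.58.1 in R 4.3.3 (lmFit, eBayes, Benjamini-Hochberg over all genes, threshold 0.05) compared the groups, also with the GAPDH value of each array subtracted. The 2.5-fold criterion and GAPDH follow the methods of the study, which name GeneSpring and no test. The study also asked for it in sequenced RIP libraries, which were not analysed here, so it is applied to the arrays alone. Fits were tested on simulated data. Normexp used the median spot intensity, in place of the mean planned first. The number of arrays limits the precision.

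Members, lists and alternatives were chosen with earlier results of these data known. Named genes are the members, GAPDH, the highest and the lowest gene of each list detected on all 4 arrays, and the 3 genes most like B2M and IRF1, except items that are not reported here. Genes said to be dim were named after their values were seen. Figures were drawn with matplotlib 3.10.9.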

Additional observations from a re-analysis of the deposited data

How the results depend on the processing

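The signs of the heavy chains, TAP1 and TAPBP rest on total RNA replicate 2. Over the fits that each left out 1 array, the log2 ratio ran from -1.95 to 0.079 for HLA-B, -1.49 to 0.50 for HLA-C, -1.56 to 0.62 for HLA-E, -1.21 to 0.12 for TAP1, -0.39 to 1.68 for TAP2, -2.40 to 0.13 for TAPBP and -0.023 to 0.54 for IRF1, and the median of the 8 from -1.35 to 0.32. TAPBP passed the test without total RNA replicate 1 (adjusted p = 0.037), the only member among 2052 genes then called lower (1849 higher), with the lone array assumed to vary like the other group; the members called lower ran from 0 to 1. Quantile normalization gave 0.75 for HLA-C, 0.64 for HLA-E, 0.18 for TAP1 and a median of 0.59, with the median of all genes at 0.26. Normexp gave 0.022 for HLA-C, 0.021 for HLA-E and -0.10 for IRF1. With GC content removed per array, with or without the replicate block, HLA-C was at 0.26, TAP1 at 0.043 and the median of the 8 at 0.12. On the E1A spike-in scale, which moved the median of all genes to 5.20, the median of the 8 was 4.76. The values were 4.30 for HLA-B, 4.74 for HLA-C, 4.77 for HLA-E, 4.69 for TAP1 and 4.10 for TAPBP. On that scale 7 members were called higher, as were 10284 of all 13040 genes. On the spike-in scale the median of the 8 thus stayed below that of all genes. Under some other alternatives it lay above, such as normexp (-0.02 against -0.13) and quantile normalization (0.59 against 0.26). B2M stayed above 0 under every alternative run, from 0.20 to 6.52.

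Relative to GAPDH, 6 members passed 2.5-fold; the count was 1 with quantile normalization (33.7% of all genes), 0 with the median gene as reference (12.5%) and 3 at 4-fold (50.7%). Members called higher in limma on this scale ran from 0 to 5 over the fits that each left out 1 array, with 5 without total RNA replicate 1, when IRF1 has no total RNA array that measured it. They were 6 with GC content removed and the replicate block (limma, adjusted p = 0.006 for TAP2 to 0.043 for HLA-E). In that fit 6236 of 11631 genes were called higher. Members called higher were 0 under the other alternatives. In the GC fit with the block every member had the same SE, 0.67, so its p-values do not measure the spread of each gene. Without the block the SE of TAP2 was 1.12. The GC and spike-in alternatives were chosen after seeing the data. With the replicate block alone on the 75th percentile scale, 57 genes were called higher and 299 lower, no member among them. The numbers do not show that the arrays are paired: there are 2 per group, and the deviations of same-numbered arrays correlated at 0.45. The cause of these changes was not tested. Dim signal limits what total RNA replicate 2 can show, IRF1 first.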
